A study of Mus musculus with 40 samples.

Results

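This report covers 10 mouse genes of metal handling in liver RNA: the metallothioneins Mt1 and Mt2, and the iron genes Hamp, Tfrc, Slc40a1, Fth1, Ftl1, Trf, Slc39a14 and Cp. They were chosen by name from the 55487 genes of the count table, and all 10 passed the filter on low counts that left 20297 genes for testing. The libraries came from whole liver of female mice on a C57BL/6JBomTac background. The knockout (HNKO) mice carried floxed Nampt alleles and Alb-Cre, which deletes in hepatocytes, whereas WT littermates carried the floxed alleles without the Cre. Both genotypes were fed a purified diet (PD), and livers were taken after 3, 6, 12 and 21 days. The labels give these days as age, but the methods give them as time on the diet, begun in adult mice. They are read here as time on the diet. Each library is from 1 mouse, with 5 WT and 5 HNKO at day 3, 4 and 5 at day 6, 5 and 6 at day 12, and 5 and 3 at day 21. Libraries 17 and 18, both HNKO at day 21, are labelled as failed in quality control and were left out, so 38 of 40 libraries entered the tests.

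Metallothioneins are small cysteine-rich proteins that bind zinc, copper and cadmium, and their genes are switched on through metal response elements by the zinc-sensing factor MTF-1, and also by glucocorticoids and inflammation. Iron balance in the liver turns on hepcidin, the hormone encoded by Hamp, which hepatocytes make when BMP and SMAD signals report iron or when IL-6 acts through STAT3, and which degrades the iron exporter ferroportin (Slc40a1). Inside cells, iron regulatory proteins bind stem-loops called iron-responsive elements: in the 5′ UTR of ferritin and ferroportin mRNA they hold back translation, and in the 3′ UTR of transferrin receptor mRNA they protect it from decay.

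The iron-responsive stem-loops are shown first. As described above, binding in the 3′ UTR protects mRNA from decay, and binding in the 5′ UTR holds back translation. A change in translation alone would not be visible in read counts. The stem-loops do not cover other responses to iron, such as that described above for Hamp. Iron, mRNA decay and translation were not measured, and whether iron bears on the RNA level of any member was not tested. The pattern searched was C, 5 stem bases, the loop CAGTGN (capitals) and 5 bases pairing with the stem, and 294 of 21901 protein-coding genes (1.34%) held it in some transcript. Coordinates are GRCm38 and the sequences are GENCODE M21 transcripts. Tfrc held 4 in its 3′ UTR on the + strand, and Slc40a1, Fth1 and Ftl1 held 1 each in the 5′ UTR.
Tfrc, 3′ UTR, chr16:32631225-32631241 (+): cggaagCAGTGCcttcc
Tfrc, 3′ UTR, chr16:32631604-32631620 (+): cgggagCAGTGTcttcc
Tfrc, 3′ UTR, chr16:32631669-32631685 (+): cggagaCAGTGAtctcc
Tfrc, 3′ UTR, chr16:32631716-32631732 (+): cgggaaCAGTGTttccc
Slc40a1, 5′ UTR, chr1:45925471-45925487 (-): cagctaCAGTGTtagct
Fth1, 5′ UTR, chr19:9982738-9982754 (+): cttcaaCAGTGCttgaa
Ftl1, 5′ UTR, chr7:45459785-45459801 (-): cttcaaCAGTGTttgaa

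Stretches of 4 promoters follow, from RefSeq (GRCm38.p6), for the neighbouring pairs Mt1 and Mt2, and Hamp and its paralog Hamp2, whose levels are set side by side below. In the metallothionein promoters, capitals mark the core of the metal response element, TGCACNC or TGCGCNC on either strand. Of 32851 promoters of 300 bases, 25.7% held at least 1 core and 1.97% held 3 or more. Mt1 held 3, starting at -23, 3 and 21 from the start site, and Mt2 held 4, at -223, -128, -50 and 5, the last 2 of which are in the stretch shown; the first transcribed base counts as 1. Of the other genes searched (1 promoter each for Hamp, Hamp2 and Ftl1, and 2 each for Tfrc, Fth1 and Cp), 1 of the Tfrc promoters held 2 overlapping cores at -53 and -50. In Hamp and Hamp2, capitals mark GGCGCC, the letters of the BMP-responsive element described for hepcidin, or its counterpart GGCACC in Hamp2, and TTCTTGGAA, those of the STAT-binding site. The same Tfrc promoter held GGCGCC at -89, and GGCACC occurred in Mt2, in Ftl1 and in 1 of the 2 Fth1 promoters. GGCGCC occurred in 11.9% of promoters, GGCACC in 15.5% and TTCTTGGAA in 0.417%. The 50-base stretches of Hamp and Hamp2 differ at 6 positions, counted from 1 at the 5′ end and written Hamp base first: G15A, T23C, A33T, G41A, A42G and T49G.
Mt1, chr8:94179059-94179118 (+): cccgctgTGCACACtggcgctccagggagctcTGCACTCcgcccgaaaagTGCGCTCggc
Mt2, chr8:94172558-94172629 (+): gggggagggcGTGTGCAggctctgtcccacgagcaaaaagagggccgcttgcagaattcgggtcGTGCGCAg
Hamp, chr7:30944100-30944149 (-): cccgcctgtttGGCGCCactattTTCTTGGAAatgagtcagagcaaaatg
Hamp2, chr7:30924249-30924298 (-): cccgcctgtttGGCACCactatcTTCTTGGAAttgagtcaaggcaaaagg

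Libraries held 16151037 to 64181492 counts (median 26466479). Nampt, the deleted gene, was lower in HNKO at day 3 (log2 fold change -0.93 ± 0.23 SE, adjusted p = 0.0193), day 6 (-0.90 ± 0.24, adjusted p = 0.0128) and day 12 (-0.82 ± 0.22, adjusted p = 0.0208), and at day 21 the difference was -0.69 ± 0.27 (adjusted p = 0.161). Levels are given as log2 CPM, where CPM are counts scaled to library size, with TMM factors. Adjusted p-values are from edgeR's quasi-likelihood test over all 8 groups with Benjamini-Hochberg adjustment over all tested genes, and a gene is called when the adjusted p is under 0.05. They measure the spread between these mice. In whole liver, fewer cells of a type and less RNA per cell cannot be told apart. A library of HNKO mice at day 12 (library 35) and one of WT mice at day 21 (library 39) stood apart in Hamp. The day 12 fold changes of Cp, Hamp and Tfrc and the likeness values are given with and without library 35. For library 39 this was done for the day 21 fold change of Hamp.

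Of the 10 genes, Cp and Fth1 differed between genotypes in the mean of the 4 days, Cp higher and Fth1 lower in HNKO. Slc39a14 was higher at day 6, and the other 7 genes were called at no day. By day, 0, 2, 1 and 1 of the 10 were called at days 3, 6, 12 and 21, where 4.66%, 12.8%, 7.82% and 3.12% of all tested genes were. At day 3, Slc40a1 and Cp had an unadjusted p under 0.05, and DESeq2 also called 0. For the mean of 4 days, 2 of 10 were called against 36.4% of all tested genes, so the share of metal-handling genes called was not above the background. The median log2 fold change of the 10 for the mean of 4 days was 0.10, and that of all tested genes was -0.0064. No member was called for a genotype by day interaction with edgeR (0 of 10 also at an unadjusted p under 0.05), and of all tested genes 0 (0%) were called and 966 had an unadjusted p under 0.05. A difference between days in the genotype effect was therefore not shown for any member.

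**Figure D1:**
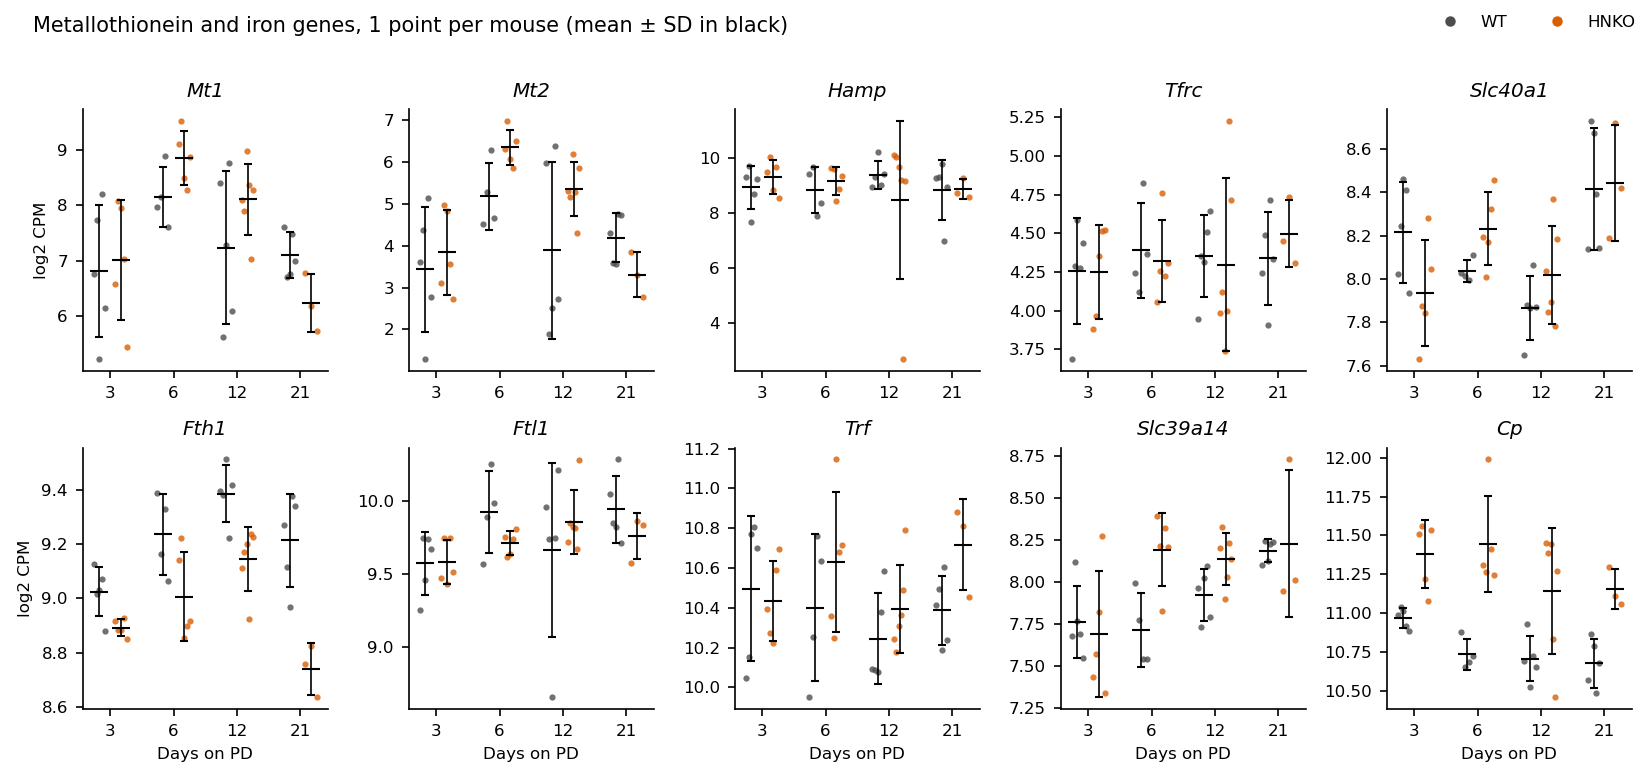
Log2 CPM (vertical axes, not starting at 0 and scaled per gene) of the 10 genes against days on PD, 1 point per mouse, WT in grey and HNKO in orange, with the group mean ± SD in black. Cp points of HNKO lie above WT at days 3, 6 and 21, Fth1 points of HNKO lie below WT at day 21, and 1 HNKO mouse at day 12 has a Hamp level of 2.67.

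Cp encodes ceruloplasmin, the copper ferroxidase that hepatocytes secrete and that loads exported iron onto transferrin. It is also an acute phase protein. At day 3, WT libraries had log2 CPM of 10.88, 10.92, 10.99, 11.01 and 11.04, and HNKO libraries had 11.08, 11.22, 11.51, 11.54 and 11.56. Every HNKO library lay above every WT library. At day 6, WT had 10.65, 10.68, 10.73 and 10.88, and HNKO had 11.24, 11.27, 11.31, 11.41 and 11.99, again without overlap. At day 12, WT ran from 10.53 to 10.93 and HNKO from 10.46 to 11.45 with a median of 11.33. The low end of HNKO at day 12 was library 35, and 4 of the 6 HNKO libraries lay above every WT library. At day 21, WT had 10.48, 10.57, 10.68, 10.79 and 10.86, and HNKO had 11.06, 11.11 and 11.30, without overlap.

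The log2 fold change of Cp was 0.42 ± 0.15 (SE, adjusted p = 0.0914) at day 3, 0.74 ± 0.16 (adjusted p = 0.00259) at day 6, 0.47 ± 0.14 (adjusted p = 0.0387) at day 12 and 0.48 ± 0.17 (adjusted p = 0.116) at day 21. Only days 6 and 12 passed the threshold, while the estimates of all 4 days were positive. The mean of the 4 days was 0.53 ± 0.08 (adjusted p = 3.28e-06), a 1.44-fold difference. Without library 35 the value at day 12 was 0.61 ± 0.13 (adjusted p = 0.0074), and without any of 8 other libraries of that day in turn its call was lost, with adjusted p up to 0.0972. It was also lost with no filter, with all 40 libraries and with only the 2 groups of the day (adjusted p = 0.0717, 0.062 and 0.131). Without library 29, the HNKO library at 11.99, the value at day 6 was 0.59 ± 0.15 (adjusted p = 0.016). The library numbers fall into a series of 1 to 21 and one of 22 to 41, and whether these are batches is not stated. Within the first and the second series, the difference in mean log2 CPM of Cp was 0.42 and 0.37 at day 3, 0.52 and 0.84 at day 6, and 0.71 and 0.16 at day 12. At day 21 all 3 HNKO libraries used belong to the second series, within which the difference was 0.57.

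Fth1, the ferritin heavy chain with ferroxidase activity, was lower in HNKO. At day 21, WT libraries had log2 CPM of 8.97, 9.12, 9.27, 9.34 and 9.38, and HNKO libraries had 8.64, 8.76 and 8.83. The groups did not overlap at that day. At day 12, WT ran from 9.22 to 9.51 and HNKO from 8.92 to 9.24 with a median of 9.19, and 4 of 6 HNKO libraries lay below every WT library. At day 6, WT had 9.06, 9.16, 9.33 and 9.39, and HNKO had 8.85, 8.90, 8.92, 9.14 and 9.22, with 3 of 5 HNKO libraries below every WT library. At day 3 WT spanned 8.88 to 9.13 and HNKO 8.85 to 8.93, with 1 HNKO library below every WT library.

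The log2 fold change of Fth1 was -0.13 ± 0.09 (SE, adjusted p = 0.404) at day 3, -0.23 ± 0.09 (adjusted p = 0.106) at day 6, -0.24 ± 0.08 (adjusted p = 0.0708) at day 12 and -0.48 ± 0.10 (adjusted p = 0.00971) at day 21. The mean of the 4 days was -0.27 ± 0.05 (adjusted p = 2.38e-05), a level of 0.83 times WT. Day 21 was the day that passed the threshold on its own, and its call was lost without library 37 (adjusted p = 0.171), without library 40 (adjusted p = 0.0547) and in a fit of the 2 groups of that day (adjusted p = 0.0738). With all 40 libraries the day 21 value was -0.36. Within the second library series the difference in mean log2 CPM was -0.11, -0.31, -0.19 and -0.62 over the 4 days in order, and within the first it was -0.18, -0.09 and -0.27 on days 3, 6 and 12.

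Ftl1 is the ferritin light chain, which forms the iron core with Fth1. For Ftl1 the mean of the 4 days was -0.07 ± 0.09 (adjusted p = 0.558), and the values by day ran from -0.23 ± 0.18 at day 6 to 0.13 ± 0.16 at day 12, with no call. The difference between Fth1 and Ftl1 in genotype effect was not tested. Log2 CPM over the 38 libraries ran from 8.66 to 10.28. Of the 51-base stretches of Ftl1 exons, 58.2% also occur in other genes, mostly the pseudogene Ftl1-ps1 (47.0%), so its counts depend on how reads of several origins were treated. The corresponding share was 1.56% for Fth1 and 0.607% for Cp.

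Across all tested genes, WT and HNKO did not overlap in either direction for 4.11%, 12.8%, 4.79% and 13.9% on days 3, 6, 12 and 21. Among the 10 members, Cp did so at days 3, 6 and 21 and Fth1 at day 21.

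**Figure D2:**
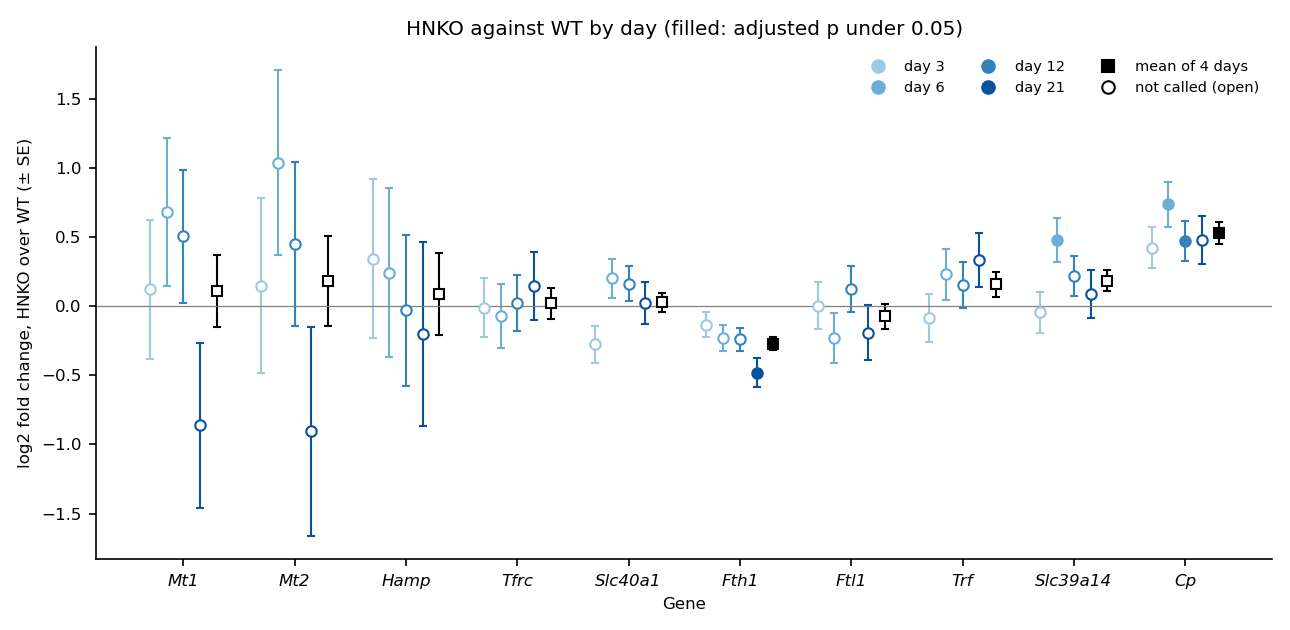
Log2 fold change of HNKO over WT (vertical axis, ± SE from edgeR) for the 10 genes at each day (circles) and for the mean of 4 days (black squares), filled where the adjusted p was under 0.05. Cp is filled at days 6 and 12 and in the mean (0.53), Fth1 at day 21 and in the mean (-0.27), and Slc39a14 at day 6 (0.48); Mt1, Mt2 and Hamp have the widest errors.

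Slc39a14 encodes ZIP14, a membrane carrier that takes up zinc and non-transferrin-bound iron into hepatocytes and is known to respond to IL-6. At day 6, WT had log2 CPM of 7.54, 7.54, 7.77 and 7.996, and HNKO had 7.82, 8.21, 8.21, 8.32 and 8.39. In 4 of 5 HNKO libraries the level was above every WT library. The log2 fold change at day 6 was 0.48 ± 0.16 (SE, adjusted p = 0.0427), and within the first and second library series the difference in mean log2 CPM was 0.42 and 0.58. This call was lost when any of 7 of the 9 libraries of that day was left out, with adjusted p up to 0.12, and also with no filter, with all 40 libraries and with only the 2 groups of the day (adjusted p = 0.0563, 0.0663 and 0.0706). At days 3, 12 and 21 the values were -0.05, 0.22 and 0.09 (adjusted p = 0.902, 0.362 and 0.854), and the mean of the 4 days was 0.18 ± 0.08 (adjusted p = 0.0621). Leaving out 1 library in turn, this mean was called in 8 of 38 fits, with adjusted p from 0.0242 to 0.195.

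Mt1 and Mt2 had a wide spread among mice of 1 group. At day 3, Mt1 in WT was 5.22, 6.15, 6.75, 7.74 and 8.20, and in HNKO 5.44, 6.57, 7.03, 7.95 and 8.08. At day 6 it was 7.61, 7.97, 8.15 and 8.89 in WT and 8.27, 8.49, 8.87, 9.11 and 9.52 in HNKO. The groups overlapped at both days, with 2 of 5 HNKO libraries above every WT library at day 6. At day 12, WT ran from 5.61 to 8.77 and HNKO from 7.03 to 8.97 with a median of 8.18. At day 21, WT had 6.71, 6.75, 6.997, 7.47 and 7.61, and HNKO had 5.73, 6.18 and 6.78. No genotype difference passed the test: the log2 fold change of Mt1 was 0.12 ± 0.50, 0.68 ± 0.54, 0.51 ± 0.48 and -0.86 ± 0.60 at days 3, 6, 12 and 21 (adjusted p = 0.927, 0.451, 0.551 and 0.479), and 0.11 ± 0.26 (adjusted p = 0.776) in the mean of 4 days. The standard errors were 0.48 to 0.60 on the log2 scale, and differences as large as 0.68 and -0.86 were not called. Leaving out 1 library moved the day 12 value of Mt1 from 0.26 (without WT library 15) to 0.96 (without WT library 33).

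Mt2 gave the same picture with lower counts. Its log2 CPM ran from 1.29 in a WT library at day 3 to 6.97 in an HNKO library at day 6. On day 6, WT livers had 4.52, 4.65, 5.28 and 6.28, and HNKO had 5.86, 6.07, 6.32, 6.51 and 6.97. Differences of Mt2 on the log2 scale were 0.15 ± 0.63, 1.04 ± 0.67, 0.45 ± 0.59 and -0.90 ± 0.76 at days 3, 6, 12 and 21 (adjusted p = 0.93, 0.337, 0.687 and 0.58). Single libraries moved the value of day 12 from 0.16 (without WT library 15) to 1.17 (without WT library 33), with no call. Of Mt2 exon stretches of 51 bases, 45.2% overlap Gm45774 on the opposite strand, which had a median of 46.5 counts against 614.5 for Mt2; whether counting used strand is not stated.

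Both metallothioneins changed over days within HNKO. Mean Mt1 in HNKO was 7.01 ± 1.08 (SD, n = 5) at day 3, 8.85 ± 0.49 (n = 5) at day 6, 8.10 ± 0.64 (n = 6) at day 12 and 6.23 ± 0.53 (n = 3) at day 21. The test for any difference between days in HNKO gave an adjusted p of 0.0169 for Mt1 and 0.0171 for Mt2 with edgeR. In WT, mean Mt1 was 6.81 ± 1.20 (SD, n = 5), 8.16 ± 0.54 (n = 4), 7.23 ± 1.38 (n = 5) and 7.11 ± 0.41 (n = 5) at the same days, and the edgeR test gave adjusted p of 0.389 for Mt1 and 0.387 for Mt2. Day 6 had the highest mean in both genotypes, and whether the genotypes differ in their course is the interaction, which was not called. Among the members, Mt1, Mt2 and Fth1 (adjusted p = 0.0264) were called for days in HNKO, where 7.9% of all tested genes were. Slc40a1 was called for days in WT (adjusted p = 0.0306), where 5.84% were. The call of Slc40a1 in WT and that of Fth1 in HNKO were both lost with no filter and with all 40 libraries.

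Hamp, the hepcidin gene, was abundant in both genotypes and was called at no day. At day 3, WT had log2 CPM of 7.69, 8.71, 9.25, 9.31 and 9.73, and HNKO had 8.55, 8.85, 9.51, 9.68 and 10.05. On day 6, WT livers had 7.88, 8.38, 9.41 and 9.67, and HNKO had 8.45, 8.87, 9.35, 9.61 and 9.64. The groups overlapped at both days. At day 12, WT ran from 8.94 to 10.22, and HNKO from 2.67 in library 35 to 10.12, with a median of 9.44 and the next lowest library at 9.16. At day 21, WT had 6.98 (library 39), 8.94, 9.27, 9.31 and 9.78, and HNKO had 8.59, 8.73 and 9.29. On the log2 scale, HNKO differed from WT by 0.34 ± 0.57, 0.24 ± 0.61, -0.03 ± 0.55 and -0.20 ± 0.66 at days 3, 6, 12 and 21 (adjusted p = 0.785, 0.849, 0.981 and 0.916). The fit works on counts, so the fold change of day 12 is weighted less by the low library than the mean of log2 CPM is (8.48 in HNKO, 9.39 in WT). Without library 35 it was 0.25 ± 0.39 (adjusted p = 0.747), and without library 39 the value at day 21 was -0.46 ± 0.67 (adjusted p = 0.782). Leaving out 1 library moved the day 3 value from 0.13 (without HNKO library 3) to 0.56 (without WT library 5). With the clock score as covariate Hamp was 0.64 at day 3 and -0.60 at day 12, with no call.

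Library 35 had 197 Hamp counts, the fewest of the 38 libraries. Its Tfrc level, 5.22, was the highest of the 38 libraries, and its Cp level, 10.46, was the lowest. Nampt was 4.92, also the lowest. Beside these, 3 targets of BMP and SMAD signaling that were chosen after their values were seen were low in the same library: Id1 at 0.97 where the other HNKO libraries of that day had 4.12 to 4.64, Smad7 at 3.55 where they had 5.25 to 5.79, and Atoh8 at 3.28 where they had 4.66 to 5.53. Bmp6, the ligand made by sinusoidal endothelial cells, was at 2.20 where they had 3.20 to 3.39. In library 39, Id1 was 1.76, Smad7 3.98, Atoh8 3.35 and Bmp6 2.74, each the lowest of its group. Summed erythroid markers (9 genes) were 701 CPM in library 35 and 35.7 to 317 CPM in the other 37 libraries, with no marker at 0. Summed hepatocyte markers (10 genes) in library 35 were 121463 CPM, inside the range of 70879 to 165714 of the other 37. The part of the erythroid RNA in the Hamp level of library 35 was not tested.

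Over the 38 libraries, taking each value as its deviation from the group mean, the genes most like Hamp were Gm4673 (Pearson r = 0.86), Id1 (0.85) and Apoa5 (0.82). Without library 35 these were 0.74, 0.67 and 0.63. Smad7 (0.80), Bmp6 (0.77) and Atoh8 (0.74), named after their values were seen, ranked 6, 7 and 10. They fell to 0.64, 0.63 and 0.53 without library 35. Saa1, an acute phase gene, ranked 82 (0.62, and 0.41 without library 35). These are descriptions over libraries that share a fit and a scaling, without a test, and the library series was not taken out.

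Hamp2, the neighbouring paralog, whose role in iron balance is not established, was lower in HNKO at days 6, 12 and 21; whether its genotype effect differs from that of Hamp was not tested. Its mean log2 CPM at day 12 was 8.49 ± 0.21 (SD, n = 5) in WT and 6.81 ± 0.55 (n = 6) in HNKO, and at day 21 it was 7.42 ± 0.82 (n = 5) and 5.24 ± 0.41 (n = 3). HNKO over WT, Hamp2 had log2 fold changes of -0.81 ± 0.44 (SE, adjusted p = 0.297) at day 3, -1.59 ± 0.47 (adjusted p = 0.0222) at day 6, -1.61 ± 0.43 (adjusted p = 0.0186) at day 12 and -2.32 ± 0.57 (adjusted p = 0.0197) at day 21, and the mean of 4 days was -1.58 ± 0.24 (adjusted p = 4.09e-06). The mean difference Hamp minus Hamp2 in log2 CPM was 1.20 ± 0.75 (SD, n = 5) in WT and 2.63 ± 1.18 (n = 5) in HNKO at day 3, 0.38 ± 1.09 (n = 4) and 2.74 ± 1.09 (n = 5) at day 6, 0.90 ± 0.65 (n = 5) and 1.67 ± 2.56 (n = 6) at day 12, and 1.44 ± 1.49 (n = 5) and 3.63 ± 0.74 (n = 3) at day 21. The low end of HNKO at day 12, -3.54, was library 35. In library 35, Hamp2 was 6.22 and the other HNKO libraries of that day had 6.24 to 7.55, so Hamp2 was not low there in the way Hamp was. Among the tested genes Hamp2 ranked 5046 in likeness to Hamp (r = 0.19, and 0.11 without library 35). Of Hamp exon stretches of 51 bases, 15.8% also occur in Hamp2.

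**Figure D3:**
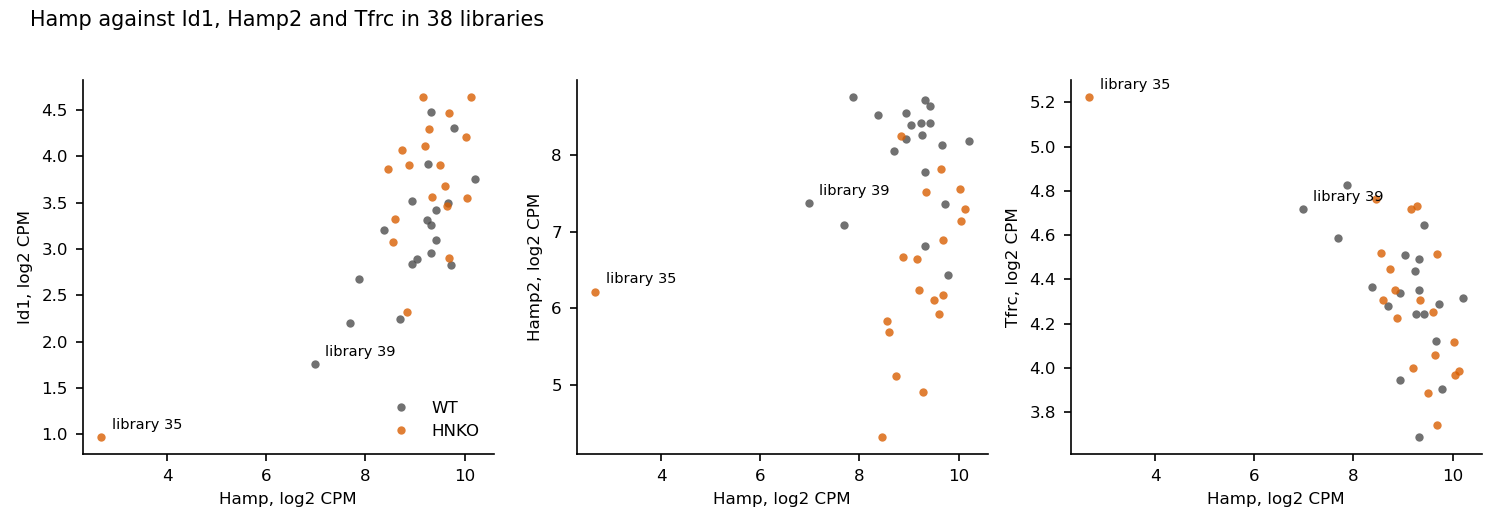
Log2 CPM of Id1, Hamp2 and Tfrc (vertical axes) against that of Hamp (horizontal axes) in 38 libraries, WT in grey and HNKO in orange, with libraries 35 and 39 named. Library 35 has the lowest Hamp (2.67) and Id1 (0.97) and the highest Tfrc (5.22) of the 38, while its Hamp2 (6.22) lies among those of the other HNKO libraries.

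Tfrc encodes transferrin receptor 1, which takes up transferrin-bound iron and whose mRNA carries the 4 stem-loops shown above. It had 327 to 1165 counts a library, and log2 CPM from 3.69 to 5.22. On day 6, WT livers had 4.12, 4.24, 4.37 and 4.83, and HNKO had 4.06, 4.22, 4.25, 4.31 and 4.76, and the groups overlapped at every day. For Tfrc the log2 fold change was -0.01 ± 0.22, -0.07 ± 0.23, 0.02 ± 0.21 and 0.15 ± 0.25 at days 3, 6, 12 and 21 (adjusted p from 0.823 to 0.989), and 0.02 ± 0.11 (adjusted p = 0.901) in the mean of 4 days. Without library 35 the value at day 12 was -0.20 ± 0.18 (adjusted p = 0.546). The genes most like Tfrc were Arih1 (r = 0.78), Dmxl1 (0.78) and Xxylt1 (0.78), and without library 35 these were 0.71, 0.73 and 0.70.

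Trf encodes transferrin, the iron carrier of plasma. Its log2 CPM ran from 9.95 to 11.15, and the log2 fold change was -0.09 ± 0.17, 0.23 ± 0.18, 0.15 ± 0.17 and 0.33 ± 0.20 at days 3, 6, 12 and 21 (adjusted p = 0.828, 0.46, 0.613 and 0.391). Leaving out 1 library moved the day 6 value from 0.099 (without WT library 8) to 0.36 (without WT library 27). The day 12 value moved from 0.062 (without HNKO library 36) to 0.25 (without WT library 34). At day 21, 2 of 3 HNKO libraries (10.81 and 10.88) lay above every WT library (10.19 to 10.60). All 3 are of the second library series and 3 of the 5 WT libraries are of the first, and with the series as covariate the value of day 21 was 0.0765 (adjusted p = 0.81). The mean of 4 days was 0.16 ± 0.09 (adjusted p = 0.178). Trf shares 59.2% of its 51-base exon stretches with other gene models, mostly the overlapping Gm20425 on the same strand, which had a median of 0 counts. How reads lying in both gene models were assigned is not stated, and the counts of Trf depend on it.

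Slc40a1, ferroportin, is the sole known cellular iron exporter. At day 3 its log2 CPM was 7.93, 8.02, 8.24, 8.41 and 8.46 in WT and 7.63, 7.85, 7.87, 8.05 and 8.28 in HNKO. At day 6 WT had 7.99, 8.02, 8.03 and 8.11 and HNKO had 8.01, 8.17, 8.19, 8.32 and 8.46. Thus 3 of 5 HNKO libraries lay below every WT library at day 3 and 4 of 5 above at day 6. Neither passed the test (log2 fold change -0.28 ± 0.13, adjusted p = 0.233 at day 3, and 0.20 ± 0.14, adjusted p = 0.396 at day 6), and the mean of 4 days was 0.03 ± 0.07 (adjusted p = 0.798). In WT, the mean was 8.21 ± 0.23 (SD, n = 5), 8.04 ± 0.05 (n = 4), 7.87 ± 0.15 (n = 5) and 8.41 ± 0.28 (n = 5) at days 3, 6, 12 and 21, lowest at day 12 and highest at day 21. In HNKO it was 7.94 ± 0.24 (n = 5), 8.23 ± 0.17 (n = 5), 8.02 ± 0.22 (n = 6) and 8.44 ± 0.27 (n = 3), and the edgeR test over days gave an adjusted p of 0.0816.

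On a per-length scale (CPM per kilobase of merged exons), the WT medians over 19 libraries were 1508 for Hamp, 642 for Ftl1, 401 for Trf, 177 for Cp, 172 for Fth1, 143 for Mt1, 35.3 for Mt2, 29.7 for Slc40a1, 23.6 for Slc39a14 and 3.26 for Tfrc. Compared within each WT library, Cp was above Fth1 in 12 of 19, Fth1 above Mt1 in 11 and Mt2 above Slc40a1 in 11, so these neighbours had no steady order, whereas Slc40a1 was above Slc39a14 in 18 of 19 and Hamp above Ftl1 in 16. Mt1 ranged from 29.8 to 382 and Mt2 from 4.05 to 142. The merged exons of Mt1 span its whole gene of 1246 bases because 1 or more transcripts keep the introns, which lowers its value on this scale. Other members are affected as well, since merged exons join all annotated transcripts of a gene. They came to 3469 bases for Fth1 (9 transcripts), 9566 for Cp (16), 9000 for Slc40a1 (8) and 10550 for Slc39a14 (13). The order of genes on this scale therefore depends on the annotation.

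Mt1 and Mt2 varied together among mice of 1 group, and the calls of the other pairs were lost when the library series was taken into account. Of 45 pairs tested by permuting libraries within groups with Benjamini-Hochberg adjustment over the pairs, 3 had an adjusted p under 0.05 for Pearson's r. Mt1 and Mt2 had r = 0.92 (permutation p = 1e-05, the smallest that 100000 permutations can give, adjusted p = 0.000225) and Spearman's rho = 0.90 (permutation p = 1e-05), and r was 0.90 without the 2 libraries farthest from the median of Mt1. These neighbouring genes on chromosome 8 carry the response element cores printed above, and whether the cores bear on the correlation was not tested. Tfrc and Trf had r = 0.67 (permutation p = 1e-05, adjusted p = 0.000225) and rho = 0.69 (permutation p = 1e-05), and r = 0.70 without the 2 farthest libraries. Hamp and Tfrc had r = -0.69 (permutation p = 0.00014, adjusted p = 0.0021) and rho = -0.58 (permutation p = 0.00038), and without the 2 libraries farthest from the median of Hamp r was -0.52 (adjusted p = 0.0416). Hamp and Trf had r = -0.36 (permutation p = 0.0197, adjusted p = 0.165), and rho = -0.52 (adjusted p = 0.00934) and r = -0.51 without the 2 farthest libraries (adjusted p = 0.00825). These permutations do not separate the library series. With deviations taken from the mean of each group and series, and libraries permuted within both, an alternative chosen after seeing the data, Mt1 and Mt2 had r = 0.94 (adjusted permutation p = 0.00045). In that setting Tfrc and Trf had r = 0.43 (adjusted permutation p = 0.545), Hamp and Tfrc r = -0.54 (adjusted permutation p = 0.72) and Hamp and Trf r = -0.05 (adjusted permutation p = 0.991), so none of these 3 pairs passed. For Hamp and Tfrc, r was -0.14 there without libraries 35 and 32. Groups split by series held 2 or 3 libraries each, so a pair carried by 1 library can hardly pass. The lost calls therefore do not show what the series accounts for. Among other pairs, Hamp and Cp had r = 0.52 (permutation p = 0.0672) and 0.09 without the 2 farthest libraries.

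The other genes of these pathways were read from the same fit. Of 21 tested genes of iron uptake, reduction, export and storage, 6 passed as higher and 2 as lower at day 6 (8.42% and 4.37% of all tested genes did), and 6 as higher and 4 as lower in the mean of 4 days, where 19.2% and 17.3% of all tested genes were higher and lower. The median log2 fold change of the list was 0.08. Lcn2, lipocalin 2, which binds the siderophores of bacteria, rose by 3.38 ± 0.30 (SE, adjusted p = 5.04e-10) on the log2 scale, Scara5, a ferritin receptor, by 3.71 ± 0.39 (adjusted p = 1.07e-08), and Steap2, a metalloreductase, by 1.11 ± 0.10 (adjusted p = 9.9e-10). Slc39a8, the metal carrier ZIP8, fell by 0.32 ± 0.05 (adjusted p = 4.04e-06), Aco1, iron regulatory protein 1, by 0.24 ± 0.04 (adjusted p = 5.86e-05), and Ncoa4, the receptor for ferritin autophagy, by 0.12 ± 0.04 (adjusted p = 0.00781).

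Of 23 genes of iron sensing and hepcidin control, 2 were higher and 8 lower in the mean of 4 days, beside 19.2% and 17.3% of all tested genes. The median log2 fold change was -0.0066. Fgl1, hepassocin, which is made by hepatocytes in the acute phase, rose by 0.83 ± 0.12 (adjusted p = 2.32e-06), and Atoh8, a SMAD target, by 0.42 ± 0.15 (adjusted p = 0.0271). Besides Hamp2, the activin receptor Acvr2a fell by 0.25 ± 0.05 (adjusted p = 0.000319) and the shared signal carrier Smad4 by 0.16 ± 0.04 (adjusted p = 0.00107). Of 26 genes of heme handling and mitochondrial iron, 4 were higher and 11 lower, beside the same 19.2% and 17.3%, with a median of -0.13. The plasma scavengers of heme and hemoglobin, Hpx and Hp, rose by 0.78 ± 0.09 (adjusted p = 2.19e-08) and 0.83 ± 0.10 (adjusted p = 1.31e-07). Flvcr1, a heme exporter, rose by 0.39 ± 0.09 (adjusted p = 0.00104). The heme synthesis enzymes Cpox and Fech fell by 0.58 ± 0.08 (adjusted p = 1.28e-06) and 0.26 ± 0.06 (adjusted p = 0.000861), and Cd163, the macrophage receptor for hemoglobin with haptoglobin, by 0.52 ± 0.11 (adjusted p = 0.000348).

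Of 21 listed genes of zinc and copper handling 18 were tested, and 4 were higher and 4 lower in the mean of 4 days, with a median of -0.0058; as 19.2% and 17.3% of all tested genes were higher and lower, the list did not stand out by these counts. The zinc carriers Slc39a1 and Slc39a10 rose by 0.21 ± 0.05 (adjusted p = 0.00127) and 0.29 ± 0.09 (adjusted p = 0.00741), and the copper pump Atp7a by 0.19 ± 0.05 (adjusted p = 0.00526). Sod1, the copper and zinc superoxide dismutase, fell by 0.46 ± 0.07 (adjusted p = 1.5e-06), its copper chaperone Ccs by 0.32 ± 0.08 (adjusted p = 0.00191), and the copper importer Slc31a1 by 0.32 ± 0.05 (adjusted p = 2.37e-05).

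Of 24 genes of the acute phase and IL-6 signaling, 16 were higher and 0 lower at day 6, where 8.42% of all tested genes were higher, and the median log2 fold change was 0.81. In the mean of 4 days 14 were higher and 1 lower, beside 19.2% and 17.3% of all tested genes. Saa1, a serum amyloid A protein, was 9.38, 9.89, 9.91, 10.39 and 10.72 in HNKO at day 6 and 3.71, 4.13, 4.82 and 4.90 in WT, and its log2 fold change was 5.66 ± 0.67 (SE, adjusted p = 2.93e-06). At days 3, 12 and 21 it was 2.57, 3.76 and 1.08 (adjusted p = 0.00535, 0.000158 and 0.321). In the mean of 4 days Saa2 rose by 3.52 ± 0.29 (adjusted p = 1.07e-10) and Osmr, the oncostatin M receptor, by 0.92 ± 0.11 (adjusted p = 5.69e-08), while Lifr, the leukemia inhibitory factor receptor, fell by 0.39 ± 0.13 (adjusted p = 0.0156). Of the members, Cp was called at this day, and so was Slc39a14 with the losses given above. Hamp, also an IL-6 target by background knowledge, had a log2 fold change of 0.24 there, which ran from 0.00189 (without WT library 27) to 0.55 (without WT library 10) with no call.

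For the lists that follow, 36.4% of all tested genes were called in the mean of 4 days, 19.2% higher and 17.3% lower. Of 11 glucocorticoid targets, 1 was higher (Cdkn1a, 1.23 ± 0.33, adjusted p = 0.00317) and 3 lower in the mean of 4 days, among them Hsd11b1, which activates cortisone in hepatocytes (-0.77 ± 0.10, adjusted p = 8.27e-07), the receptor Nr3c1 (-0.20 ± 0.06, adjusted p = 0.00383) and Klf9 (-0.32 ± 0.10, adjusted p = 0.00836). Of 9 tested hypoxia targets, 2 were higher, Egln3 and Car9 (0.37 ± 0.11 and 1.43 ± 0.52), and 5 lower, with Pdk1, Bnip3 and Vegfa at -0.62 ± 0.12, -0.37 ± 0.09 and -0.32 ± 0.08 (adjusted p for the 5 genes from 0.000137 to 0.0304). Of 12 clock genes 2 were lower, Cry1 (-0.50 ± 0.11, adjusted p = 0.000883) and Hlf (-0.51 ± 0.13, adjusted p = 0.00232).

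**Figure D4:**
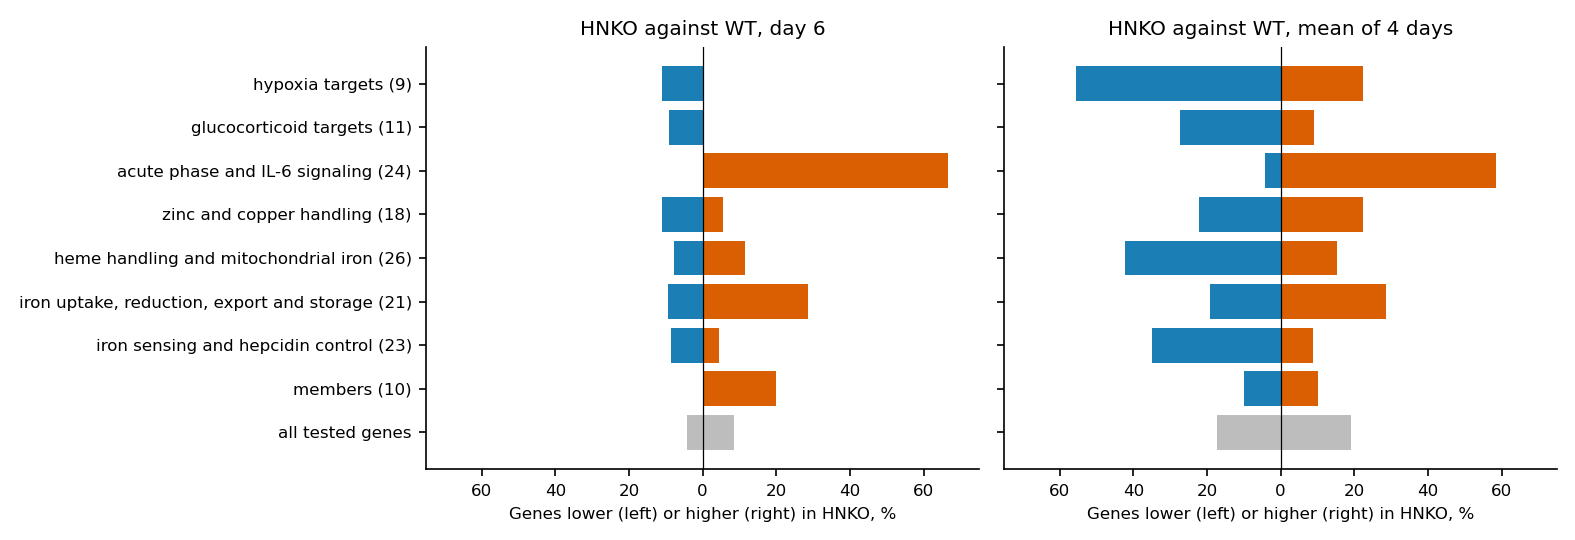
Share of tested genes (horizontal axis, %) called lower (blue, left) or higher (orange, right) in HNKO at day 6 and in the mean of 4 days, for the 10 members and 7 pathway lists with the number tested in brackets, and for all tested genes in grey. At day 6, 16 of 24 acute phase genes are higher, and 2 of the 10 members are.

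Markers of other liver cells differed between the genotypes beside the results on Cp and Fth1. In the mean of 4 days, all 6 cholangiocyte markers, all 6 tested neutrophil markers of 8 listed, 9 of 12 Kupffer cell and macrophage markers, 5 of 6 proliferation genes and 5 of 8 stellate cell markers were higher in HNKO, with 1 stellate marker (Reln) lower, 4 of 10 hepatocyte markers and 2 of 8 sinusoidal endothelial markers were lower, and 1 of 9 erythroid markers was lower. Of all tested genes, 19.2% were higher and 17.3% lower in that comparison. At day 6 the summed level of the hepatocyte markers ran from 136031 to 153632 CPM in WT and from 70879 to 121447 CPM in HNKO. That of the macrophage markers was 793 to 998 CPM in WT and 996 to 1461 CPM in HNKO, that of the cholangiocyte markers 34.3 to 46.3 and 165 to 754 CPM, and that of the neutrophil markers 4.25 to 5.90 and 17.7 to 57.6 CPM, with Ly6g at 0 in WT. At day 21, the day of the Fth1 call, the hepatocyte markers summed to 110666 to 165537 CPM in WT and 92892 to 128497 CPM in HNKO, and the macrophage markers to 463 to 730 and 720 to 865 CPM. The part of these cell types in the differences of Cp, Fth1 and Slc39a14 was not tested.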

How the data were processed

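The authors depleted rRNA from whole-liver RNA, sequenced 51-bp paired ends from stranded libraries, aligned them to GRCm38 with STAR 2.7.2b and counted fragments on GENCODE M22 genes with featureCounts 1.6.4; the deposited values are raw counts per gene, without normalization, and whether counting used strand is not given in the sources used here. Columns were matched to the samples by their labels (0 columns were left over). Counts were filtered (edgeR filterByExpr, minimum count 10, minimum total 15), TMM-scaled and fitted with edgeR 4.0.16 in R 4.3.3 (quasi-likelihood, legacy computation, 8 groups, no covariate). The 35190 genes removed held few counts, and 99.9% of counts were kept. Log2 CPM used a prior count of 2. The members and lists were chosen with earlier results of these data known. The text names the members, Nampt, and from each pathway list up to 3 higher and 3 lower genes with the smallest adjusted p for the mean of 4 days. Likeness was Pearson's r of deviations from group means, and the 3 highest genes are named for Mt1, Hamp and Tfrc. Pairs of libraries within a group differed beyond sampling noise. Alternatives were DESeq2 1.42.0, other scaling, filtering, libraries and covariates, and leaving out each library. The fits were also run on simulated counts with known changes, and the outcome is not reported here. Symbols were matched for 55394 of 55487 genes, and Slc39a14, Slc40a1 and Trf had no promoter to search. The lowest counts of a member in any library were 40 for Mt2, 197 for Hamp and 327 for Tfrc.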

Additional observations from a re-analysis of the deposited data

Results flagged for a closer look

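Of 70 groups of 4 or more libraries examined for the members, 3 held a library far from the others, where chance gives about 1 in 20, or 3.5. Hamp was 2.67 in library 35 (HNKO, day 12), and 9.16 to 10.12 in the other 5 libraries of its group. Ftl1 was 10.28 in library 36 of the same group, and 9.67 to 9.85 in the others. Cp was 11.99 in library 29 (HNKO, day 6), and 11.24 to 11.41 in the others. In the 2 HNKO libraries of day 21 that were labelled as failed in quality control and entered only the setting with all 40 libraries, on a scaling of all 40 libraries, Trf was 10.74 and 10.81, above the highest WT library of that day (10.63), and Slc39a14 was 8.26 and 8.31, above the highest WT library (8.25). In those same 2 libraries Cp was 10.66 and 11.02. Fth1 was 9.12 and 8.94 in them, above the HNKO libraries used at that day (8.65 to 8.84), while WT ran from 8.97 to 9.40. With these 2 libraries the groups overlap in Fth1 at day 21.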

How the results depend on the processing

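No paired analysis was possible because each library number was used once. Of 450 values recomputed under 8 alternatives, 428 kept their direction and their side of the threshold, and of 1140 values recomputed without 1 library, 1077 did. For the mean of 4 days, Cp and Fth1 were called under all 7 alternatives that could be run and without each of the 38 libraries in turn, and the clock score as covariate added Trf (3 members). With that covariate 8232 of 20297 genes were called, beside 7398 in the main fit. At day 6, 1 member was called (Cp, not Slc39a14) with no filter, with all 40 libraries and with only the 2 groups of the day. Over all genes, 1925 of 39297, 1321 of 19981 and 1325 of 17600 were called there, beside 2596 of 20297 in the main fit. At day 12, 0 were called under these 3 settings, and 2 (Fth1 and Cp) with DESeq2 and with the clock score. Over all genes at day 12, the 3 settings called 1086 of 39297, 624 of 19981 and 867 of 18095. DESeq2 called 1993 of 39297 and the clock score 4001 of 20297, beside 1588 of 20297 in the main fit. The number called thus changed across all genes and not only for members. At day 21, 0 were called with only the 2 groups, where 660 of 18251 genes were, beside 634 of 20297 in the main fit. Without 1 library the count called was 0 to 1 at day 3, 1 to 2 at day 6, 0 to 1 at day 12, 0 to 1 at day 21, 2 to 3 for the mean of 4 days and 0 for the interaction. For days in WT, 0 members were called with no filter and with all 40 libraries, and 2 (Slc40a1 and Fth1) with the edgeR 4 computation, the label series or the clock score as covariate. Over all genes, the first 2 settings called 798 of 39297 and 581 of 19981. The last 3 called 1244, 2224 and 3242 of 20297, beside 1185 in the main fit. The count of correlated pairs was 4 without the 2 farthest libraries (Hamp and Trf added) and 1 within group and label series (Mt1 and Mt2), a setting chosen after seeing the data. With the label series as covariate the log2 fold change changed sign for Tfrc (0.0772, -0.0501, -0.12 and -0.0488 at days 3, 12, 21 and in the mean), Trf (0.0166 at day 3), Hamp (0.43 at day 21) and Slc40a1 (-0.0652 at day 21). At day 3, Ftl1 was -0.00808 with RLE, -0.00829 with DESeq2, -0.00323 with all 40 libraries and -0.0835 with the clock score, and Slc39a14 was 0.0192 with the clock score. Signs also turned without 1 library, within -0.16 to 0.55 (Mt1), -0.18 to 0.70 (Mt2), -0.13 to 0.0754 (Tfrc), -0.0757 to 0.0463 (Ftl1) and -0.23 to 0.0556 (Slc39a14) at day 3, -0.18 to 0.10 (Tfrc) at day 6, -0.22 to 0.25 (Hamp), -0.20 to 0.13 (Tfrc) and -0.0502 to 0.27 (Ftl1) at day 12, -0.46 to 0.0313 (Hamp), -0.10 to 0.16 (Slc40a1) and -0.18 to 0.24 (Slc39a14) at day 21, and -0.0228 to 0.0642 (Tfrc) in the mean. None of the values that changed sign was called in either fit, and the causes were not tested.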

Other observations

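The difference Mt1 minus Mt2 in log2 CPM, which does not depend on library scaling, was 3.37 ± 0.34 (SD, n = 5) in WT and 3.17 ± 0.31 (n = 5) in HNKO at day 3, 2.97 ± 0.35 (n = 4) and 2.50 ± 0.17 (n = 5) at day 6, 3.34 ± 0.998 (n = 5) and 2.75 ± 0.21 (n = 6) at day 12, and 2.92 ± 0.43 (n = 5) and 2.92 ± 0.04 (n = 3) at day 21. The genes most like Mt1 over the 38 libraries were Mt2 (r = 0.92), Slc22a18 (0.78) and Pcbp4 (0.76), and these were 0.92, 0.77 and 0.75 without library 35.

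In WT at day 12, Mt2 fell into low libraries at 1.89, 2.50 and 2.72 and high ones at 5.97 and 6.38, with Mt1 at 5.61, 7.28 and 6.10 in the former and 8.39 and 8.77 in the latter. In libraries 17 and 18 Hamp was 8.86 and 7.60, Id1 3.06 and 1.85, and Bmp6 4.53 and 1.63 on the scaling of all 40 libraries.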
